A study of Mus musculus with 20 samples.

Results

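Wild-type mouse tracheal epithelial cells were compared between day 14 and day 7 of culture at an air-liquid interface. The members are libraries, taken from the labels of genotype and day: 3 wild-type libraries of day 14 and 3 of day 7, which makes 6 of the 20 libraries in the series. In these primary cultures, epithelial cells from the trachea are plated on Transwell membranes, and the medium is then removed from the upper side, after which basal cells can differentiate into ciliated and secretory types. The series follows wild-type cultures and cultures labelled p73 knock-out, the gene of which is Trp73, on days 0, 4, 7 and 14. Every library used here, wild type and knockout-labelled alike, is labelled as an air-liquid interface culture, and the day is the one the labels give for it. Besides the 6 libraries, 2 knockout-labelled libraries each of day 14 and day 7 were used below for side-by-side values. So were 3 wild-type libraries each of day 4 and day 0. The labels give neither the strain, sex and age of the mice nor how many mice went into a culture. Unless a fit is said to lack the replicate block, p-values measure how the day difference varies between pairs of same-numbered libraries. The spread between cultures that both days of a pair share is taken out by the block. Whether the pairs come from separate animals is not stated. Each library is polyadenylated RNA of a whole culture, in which more cells of a type and more RNA per cell cannot be told apart.

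The airway epithelium keeps itself clear by mucociliary transport: secretory cells release mucins and defence proteins, and multiciliated cells beat the fluid along. A cell that becomes multiciliated passes through a programme in stages. Gmnc and Mcidas, nuclear proteins of the Geminin family, act with E2f4 or E2f5 to switch on the genes for mass production of centrioles, and p73, Myb, Foxj1 and the Rfx factors switch on genes of the cilium itself. Centrioles then dock at the surface as basal bodies, and each grows a motile axoneme, which is built from outer and inner dynein arms, radial spokes, a central pair and proteins inside the microtubules.

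The recovered reads per library numbered 26.2, 25.0 and 14.4 M at day 14 and 26.2, 18.8 and 20.1 M at day 7, in order of replicate number. Levels are given as CPM, read counts scaled to a common total on 1 scale for all 20 libraries, and they compare a gene between libraries, not 1 gene with another. Differences are log2 of day 14 over day 7 on a log2(CPM + 0.5) scale, each ± its SE from limma over 3 pairs of libraries with the same replicate number. A gene was called, and is said to have risen or fallen, at a limma adjusted p under 0.05 over all 14365 genes tested. The defining markers of tracheal epithelium were present. The basal keratin Krt5 had 385, 394 and 458 CPM at day 14 and 401, 581 and 431 CPM at day 7, and the luminal keratin Krt8 had 307, 415 and 366 CPM against 317, 432 and 354 CPM. Foxj1, which marks multiciliated cells, had 487, 492 and 476 CPM against 419, 482 and 471 CPM. Of 12 endothelial and glial markers 4 were high enough to be tested, and the endothelial genes Cdh5, Cldn5, Emcn and Tie1 had at most 0.118 CPM in these libraries. The list summed to 6.84, 9.57 and 12.6 CPM at day 14 against 6.77, 4.82 and 5.93 CPM at day 7. All 4 tested members had a positive difference (median 0.22), 1 at an unadjusted limma p under 0.05. Limma, edgeR and DESeq2 called 0 of them, and limma without replicate 1 called 1 higher.

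Genes that rose at day 14 relative to day 7 included those of the ciliary axoneme, of club cell secretions, of the interferon response and of detoxification. Genes that fell included 3 of 15 regulators of multiciliated cells (Mcidas, Ccno and Cdc20b), the mucin Muc5b, and genes of matrix and of hypoxia. Counts for each list are given below. In limma, 837 of 14365 genes were called (5.83%), of which 636 were higher (4.43%) and 201 lower (1.4%) at day 14. Calls in every list below are to be read against these shares of all genes. An unadjusted limma p under 0.05 was reached by 3202 of the 14365 genes, in either direction. Counts at that p in the lists for this comparison are to be read against this share. The median difference over all genes tested was 0.004, and in 2363 genes (16.4%) the 3 libraries of day 14 did not overlap those of day 7. The number rests on comparing libraries within replicate numbers: without the replicate block in the model 6 genes were called, 5 of them higher. In models that took in more libraries the count was 0: 1313 genes had an unadjusted limma p under 0.05 in a fit of the 12 wild-type libraries with the block, and 621 in a fit of all 20 libraries without it. On the recovered reads, with the block, edgeR called 1029 genes and DESeq2 called 977. The balance of directions moved with the scaling: 76.0% of calls were higher at day 14 as reported, 65.8% when scaled by library size and 30.9% in the values as the authors scaled them, whose factors were set within each day and moved the median of all genes by -0.10.

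**Figure D1:**
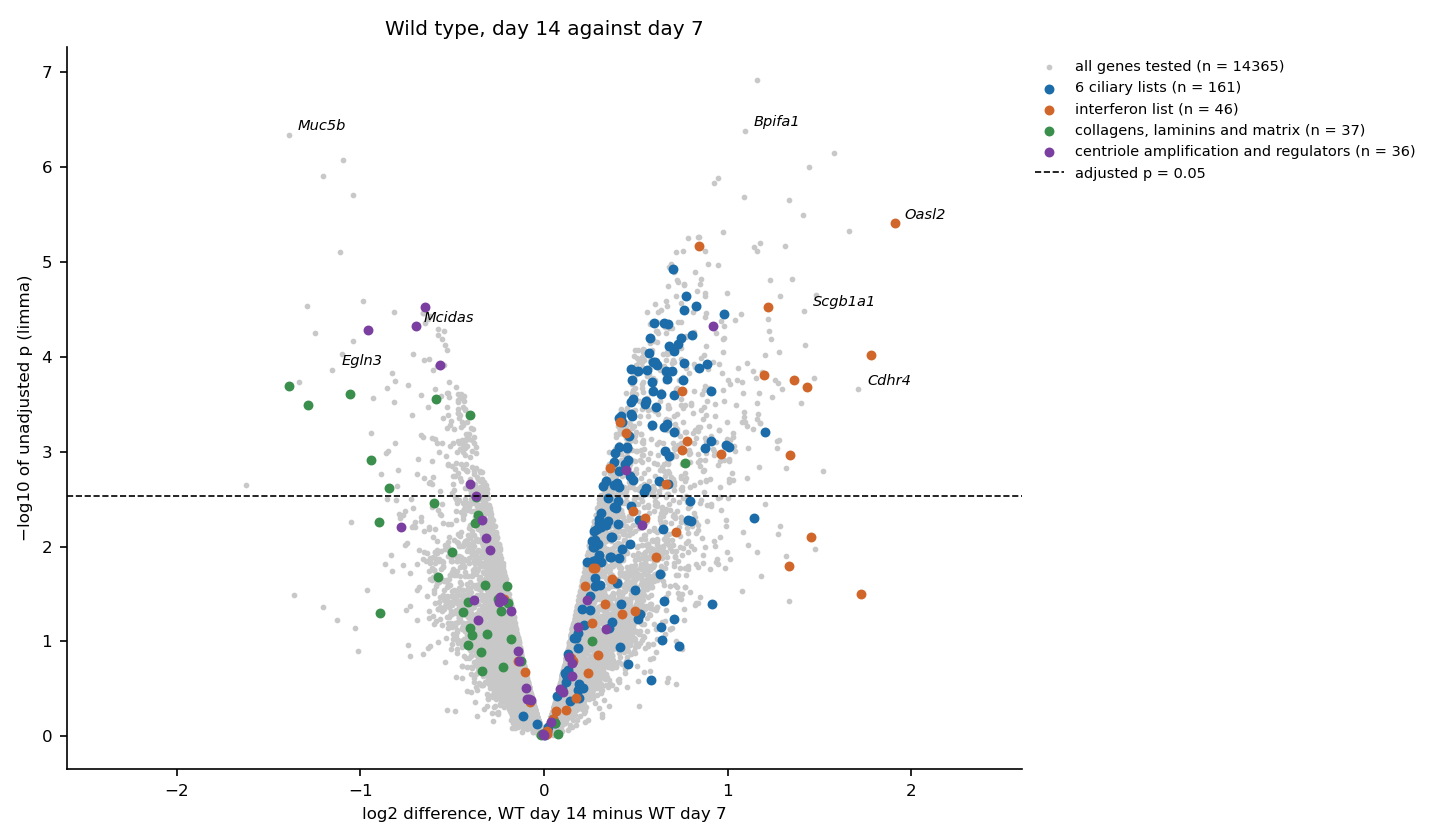
Log2 difference of wild-type day 14 over day 7 (x axis) against the −log10 of the unadjusted limma p (y axis) for 14365 genes, with list members in colour and the dashed line at an adjusted p of 0.05. The 161 tested genes of 6 ciliary lists (blue) lie to the right of 0 in 158 cases, and those past the line are all on the right.

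Among 15 regulators of multiciliated cells, 3 that act early fell, 1 rose, and the ciliary transcription factors were not called. Mcidas, which starts centriole amplification, had 34.9, 41.1 and 36.0 CPM at day 14 against 52.3, 61.4 and 69.7 CPM at day 7, a log2 difference of -0.70 ± 0.10 (limma adjusted p = 0.00708). All 3 libraries of day 14 lay below all 3 of day 7. Ccno, a cyclin needed for centriole production, had 90.2, 91.9 and 89.0 CPM against 115, 149 and 140 CPM (-0.57 ± 0.09, adjusted p = 0.00964 in limma). Cdc20b, a relative of the mitotic activator Cdc20, had 13.1, 13.7 and 24.2 CPM against 26.0, 34.9 and 37.2 CPM (-0.96 ± 0.13, limma adjusted p = 0.00723). Again the days did not overlap for either gene. These 3 genes are neighbours on chromosome 13 of GRCm38, all on the forward strand: Ccno at chr13:112987802-112990777, Mcidas at chr13:112993845-113000394 and Cdc20b at chr13:113035111-113091195. Gpx8, which lies inside Cdc20b on the opposite strand, had a difference of 0.22 ± 0.09 and was not called (limma adjusted p = 0.182), and reads of overlapping genes cannot be assigned to a strand in these libraries. The call on Ccno ended without replicate 3 (limma adjusted p = 0.0677), and those on Mcidas and Cdc20b held with each replicate left out.

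The regulator that rose was Fank1, an ankyrin-repeat protein, at 39.1, 58.6 and 59.4 CPM on day 14 against 23.6, 23.3 and 35.5 CPM on day 7 (0.92 ± 0.13, limma adjusted p = 0.00708). The other 11 regulators were not called. The differences were 0.09 ± 0.08 for Foxj1, the master factor of motile cilia, 0.15 ± 0.10 for Gmnc and -0.09 ± 0.11 for Trp73, whose libraries overlapped between days. Those of Rfx2 and Rfx3, which bind the X-box of ciliary promoters, were 0.15 ± 0.12 and 0.34 ± 0.16, and that of Myb was -0.23 ± 0.09. Foxn4, a forkhead factor of multiciliated cells, stood at 15.5, 14.0 and 22.9 CPM against 21.7, 38.1 and 31.6 CPM (-0.78 ± 0.20, limma adjusted p = 0.075). Jazf1 (0.54 ± 0.15, limma adjusted p = 0.0727), E2f5 (0.23 ± 0.10), E2f4 (-0.08 ± 0.10) and Tfdp1 (-0.10 ± 0.09) complete the list.

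The 21 genes of centriole amplification leaned downward with a median of -0.18, against 0.004 for all genes. Of the 21, 2 fell and 1 rose, beside 1.4% of all genes called lower and 4.43% called higher. Stil, a scaffold for new centrioles, fell to 27.8, 28.0 and 38.7 CPM at day 14, against 41.7, 46.9 and 60.1 CPM at day 7 (-0.65 ± 0.09, limma adjusted p = 0.00654). Plk4, the kinase that licenses centriole duplication, had 59.4, 46.5 and 68.4 CPM against 71.2, 73.7 and 84.2 CPM (-0.41 ± 0.10, limma adjusted p = 0.043). The days did not overlap for Stil or for Plk4, and the call on Plk4 ended whichever replicate was left out (limma adjusted p from 0.104 to 0.145). Ccdc67, which encodes the deuterosome protein Deup1, had a difference of -0.34 ± 0.09 and missed the threshold (limma adjusted p = 0.0684). The riser was Ccdc78, found at deuterosomes in Xenopus, at 30.9, 52.6 and 58.6 CPM against 26.1, 39.0 and 36.6 CPM (0.45 ± 0.10, limma adjusted p = 0.035). Its days overlapped, and its call ended without any 1 of the replicates (limma adjusted p from 0.0565 to 0.178).

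**Figure D2:**
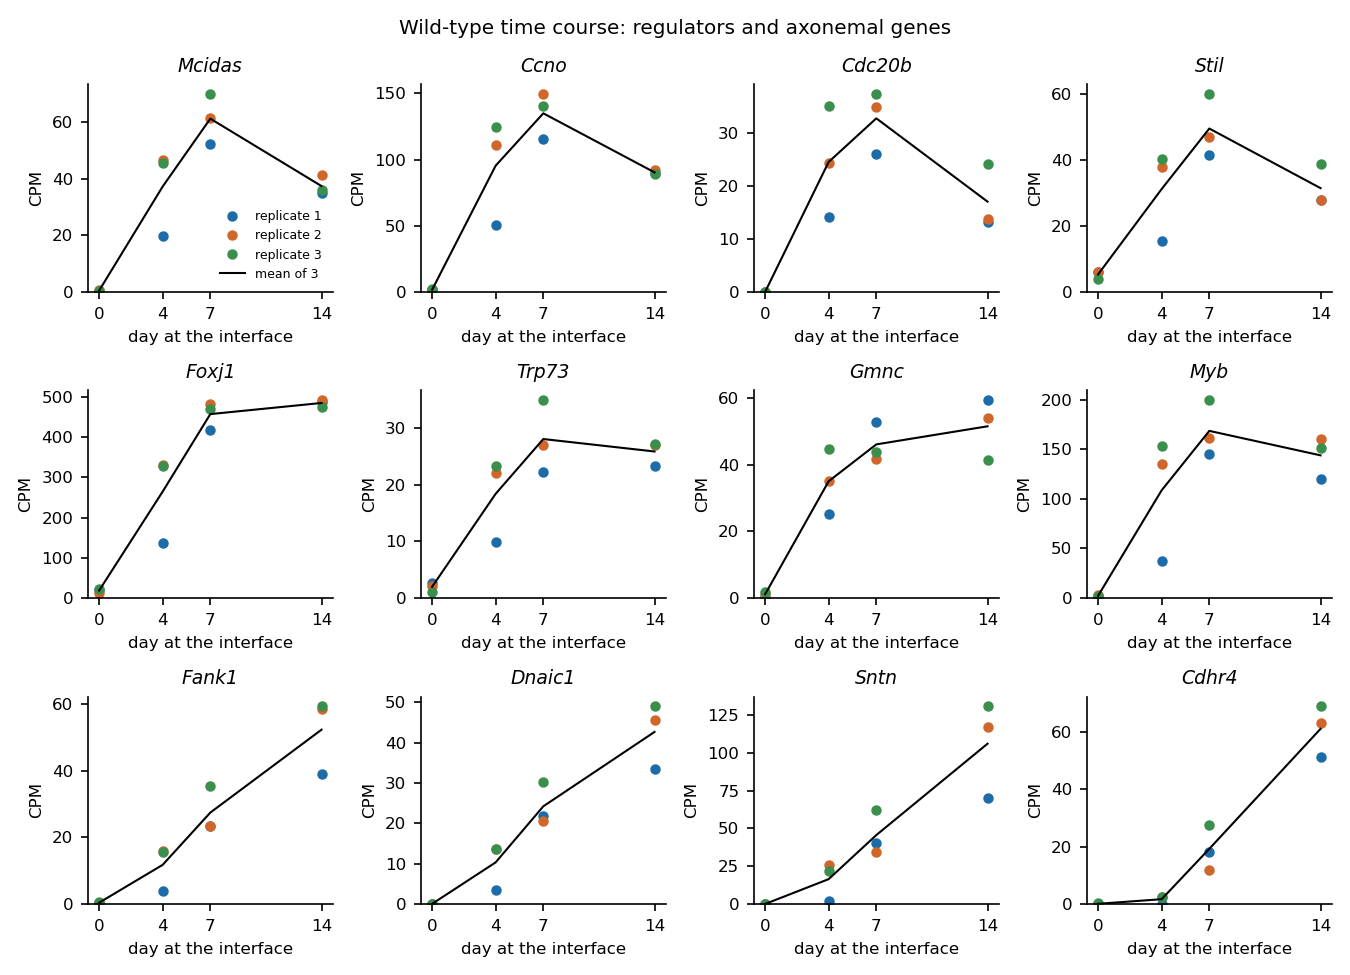
CPM (y axes, linear from 0) of 12 genes in the wild-type libraries by day at the interface (x axes), with points for the 3 replicates and a line through their means. Mcidas, Ccno, Cdc20b and Stil have their highest mean at day 7, Foxj1, Trp73, Gmnc and Myb were not called between days 7 and 14, and Fank1, Dnaic1, Sntn and Cdhr4 have their highest mean at day 14.

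Levels over the 4 days are given for a few of these genes, chosen after their values were seen, with no test of a difference between them. Mcidas averaged 0.507 ± 0.347, 37.2 ± 15.2, 61.1 ± 8.71 and 37.4 ± 3.33 CPM on days 0, 4, 7 and 14 (SD, n = 3 each), so that its highest mean was at day 7. Foxj1 averaged 18.7 ± 5.50, 265 ± 111, 457 ± 33.9 and 485 ± 8.40 CPM over the same days, with its last step within the spread of day 7, and Gmnc averaged 1.12 ± 0.708, 35.1 ± 9.80, 46.2 ± 5.998 and 51.6 ± 9.28 CPM, so that this regulator too had its highest mean at day 14. Sntn, a protein of the ciliary tip, averaged 0.0685 ± 0.119, 16.5 ± 12.7, 45.6 ± 14.4 and 106 ± 31.9 CPM, and Dnaic1 0.0517 ± 0.0450, 10.3 ± 5.86, 24.2 ± 5.26 and 42.7 ± 8.23 CPM, with the highest mean at day 14 in both. Replicate 1 of day 4, which its title gives as day 3, was lowest of the 3 for each of these genes. In order of replicate number, day 4 had 19.6, 46.5 and 45.4 CPM for Mcidas and 136, 330 and 327 CPM for Foxj1. It had 2.00, 25.6 and 21.8 CPM for Sntn, 3.57, 13.7 and 13.7 CPM for Dnaic1, and 25.2, 35.2 and 44.8 CPM for Gmnc. Replicate 3 of day 4 had a depth of 3.27 M reads. The part of either library in the spread at day 4 was not tested.

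Many genes that build the motile cilium rose. Over 6 ciliary lists together, 75 of 161 tested genes rose and 0 fell, which is 46.6% against 4.43% of all genes called higher. No ciliary gene was called lower by edgeR or DESeq2 either, and 1 had an unadjusted limma p under 0.05 on the lower side. The median difference was 0.45, with medians of 0.30, 0.67 and 0.38 in pairs 1, 2 and 3. In 136 of the 161 genes the difference was positive in all 3 pairs. In 47 of the 161 the libraries of the days did not overlap, beside 2363 of all 14365 genes tested (16.4%). The number that rose was 30 without replicate 1, 57 without replicate 2 and 41 without replicate 3. Over all genes tested in these fits 280 of 14214, 452 of 14055 and 283 of 14141 were called higher, in the same order. Without the replicate block 0 of them were called. On the other scalings the medians of the 6 lists stayed above 0 (lowest 0.19, for the BBSome and transition zone list in the values as deposited).

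**Figure D3:**
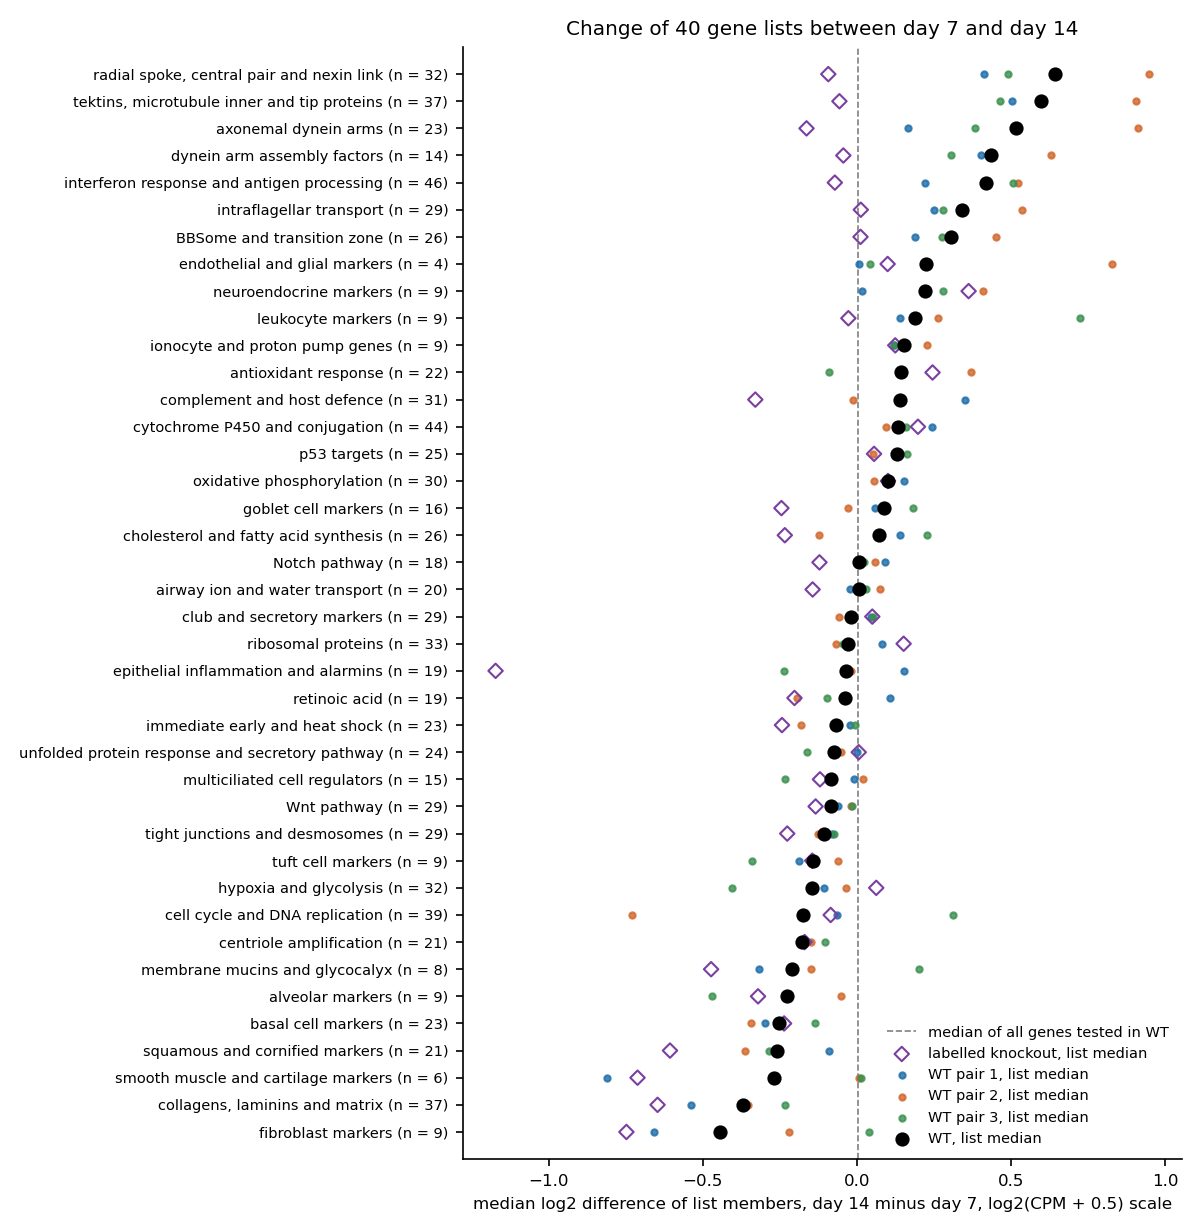
Median log2 difference of day 14 over day 7 (x axis) for 40 gene lists (rows, n is the number of members tested), for the libraries labelled knockout (open diamonds), each of the 3 wild-type pairs (small points) and the wild-type fit (large points). The 4 axonemal lists at the top have wild-type medians of 0.43 to 0.64 and knockout-labelled medians of -0.16 to -0.04.

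Genes of the radial spokes, the central pair and the nexin link, which govern the beat, had 17 risers among 32 tested (10, 16 and 8 without replicates 1, 2 and 3) and a median of 0.64. Nme5, a radial spoke protein, had 112, 161 and 169.8 CPM at day 14 against 71.8, 88.1 and 111 CPM at day 7 (0.70 ± 0.08, limma adjusted p = 0.005). Iqcg, of the nexin-dynein regulatory complex, had 153, 201 and 228 CPM against 107, 109.5 and 154 CPM (0.65 ± 0.09, limma adjusted p = 0.00698). For Nme5 the days stood apart, while day 14 replicate 1 of Iqcg fell just below the highest library of day 7. Lrrc48 (now Drc3, 0.71 ± 0.11) and Ccdc65 (Drc2, 0.57 ± 0.09) belong to the same complex. Spag16 of the central pair had 12.2, 29.7 and 31.5 CPM against 7.43, 9.34 and 18.96 CPM (1.01 ± 0.19, limma adjusted p = 0.0252), with pair 2 carrying the largest step. Hydin, a giant central pair protein, had 56.7, 124 and 102 CPM against 65.4, 41.6 and 77.8 CPM and was not called (0.58 ± 0.42, limma adjusted p = 0.534), with pair differences of -0.20, 1.56 and 0.39. The call on Spag16 ended without replicate 1 or 3 (limma adjusted p = 0.062 and 0.0533).

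Tektins, microtubule inner proteins and tip proteins had 25 risers among 37 tested, the largest share of the 6 lists, and a median of 0.60. Without replicate 1 the number was 12. Sntn had 70.0, 117 and 131 CPM at day 14 against 40.5, 34.4 and 61.9 CPM at day 7 (1.20 ± 0.18, limma adjusted p = 0.0205), with all of day 14 above all of day 7. Tppp3, a microtubule-stabilizing protein of ciliated cells, had 478, 774 and 597 CPM against 304, 373 and 388 CPM (0.77 ± 0.10, limma adjusted p = 0.00626). Ccdc11 (now Cfap53) had 26.9, 31.3 and 34.7 CPM against 12.9, 12.6 and 22.4 CPM (0.98 ± 0.13, limma adjusted p = 0.00654). In both of these, too, the days did not overlap. Efcab1 (0.83 ± 0.11) and 1700007K13Rik (0.76 ± 0.10) had the same limma adjusted p as Ccdc11. Of the tektins, Tekt1 rose (0.48), and Tekt2, Tekt3, Tekt4 and Tekt5 were not called, at 0.19, 0.65, 0.25 and -0.11. The call on Tekt1 ended without replicate 1 (limma adjusted p = 0.091), and that on Sntn held with each replicate left out.

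Dynein arm genes, the motors of the beat, had 8 risers among 23 tested (4, 7 and 4 without replicates 1, 2 and 3) and a median of 0.51. Dnaic1 (chr4:41569775-41638158), an outer arm intermediate chain whose human counterpart is mutated in primary ciliary dyskinesia, had 33.4, 45.6 and 49.0 CPM against 21.9, 20.5 and 30.2 CPM (0.81 ± 0.12, limma adjusted p = 0.00753). Wdr78 (now Dnai4), an intermediate chain-like protein, had 119, 141 and 156 CPM against 82.8, 82.9 and 109 CPM (0.60 ± 0.08, limma adjusted p = 0.00698). In both genes each library of day 14 exceeded each library of day 7. Armc4, which docks the outer arm (0.68 ± 0.10), and Dnali1, an inner arm light chain (0.59 ± 0.10), rose with overlapping days.

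The heavy chains, which are very long genes, were less even across pairs than the other arm genes. Of 12 heavy chains tested 1 was called, Dnahc7a (0.88 ± 0.18, limma adjusted p = 0.0255), against 7 of 11 other arm genes, and that call ended whichever replicate was left out (0.0791 to 0.103). Their median differences were 0.04 in pair 1, 1.15 in pair 2 and 0.24 in pair 3, against 0.39, 0.76 and 0.47 for the other arm genes. Dnahc5, the main outer arm motor, shows this in its levels, with 373, 528 and 449 CPM at day 14 against 367, 222 and 416 CPM at day 7, where replicate 2 of day 7 stands low. Its difference was 0.46 ± 0.28 (limma adjusted p = 0.435).

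Factors that assemble dynein arms in the cytoplasm had 6 risers among 14 tested (3, 4 and 5 without replicates 1, 2 and 3), with a median of 0.43. Lrrc6 had 51.4, 70.3 and 76.0 CPM at day 14 against 32.5, 33.7 and 52.6 CPM at day 7 (0.74 ± 0.11, limma adjusted p = 0.00772). Only replicate 1 of day 14 dipped below a day 7 library, that of replicate 3. Pih1d2 (0.60 ± 0.10), Daw1 (0.91 ± 0.16) and Ccdc103 (0.55 ± 0.10) rose as well, and Zmynd10, an essential assembly factor, stayed uncalled at 0.07. The calls on Daw1 ended without replicate 1 or 3 (limma adjusted p = 0.062 and 0.0619), and those on Ccdc103, Dnali1 and Ccdc65 ended without replicate 1 (0.0979, 0.0753 and 0.0518).

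Intraflagellar transport, which carries cargo along growing and finished cilia of every kind, had 12 risers among 29 tested, but 1, 6 and 4 without replicates 1, 2 and 3, and a median of 0.34. Ift88 of the IFT-B complex had 111, 127 and 139 CPM at day 14 against 81.7, 68.6 and 96.5 CPM at day 7 (0.62 ± 0.10, limma adjusted p = 0.00964). Every day 14 library was above every day 7 library. Ift57 (0.59 ± 0.10), Traf3ip1 (Ift54, 0.56 ± 0.09) and the dynein-2 light intermediate chain Dync2li1 (0.55 ± 0.10) followed, and each of these 3 lost its call without replicate 1 (limma adjusted p = 0.0725, 0.0806 and 0.0767). The BBSome and transition zone, which gate the cilium, had 7 risers among 26 tested and a median of 0.30. Tmem216 of the transition zone had 46.9, 47.2 and 47.2 CPM against 34.3, 30.5 and 38.6 CPM (0.45 ± 0.09, limma adjusted p = 0.0252), and Arl6, which recruits the BBSome, had 76.4, 83.1 and 77.6 CPM against 57.0, 56.9 and 64.5 CPM (0.41 ± 0.09, limma adjusted p = 0.0253). The days did not overlap in either. Cc2d2a (0.38 ± 0.08) and Bbs7 (0.44 ± 0.10) rose too, but 0 members of this list stayed called when any 1 replicate was left out.

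Promoters of the ciliary genes were searched for the X-box, the motif bound by Rfx factors, because these genes moved together. It was written as GTNNCC and NGNAAC joined by an imperfect spacer, in the forms GTNNCCNGNAAC, GTNNCCNNGNAAC, GTNNCCNNNGNAAC and GTNNCCNNNNGNAAC, and read on both strands from 250 bases before to 50 after the start in the RefSeq windows of GRCm38.p6. It was found in 7.6% of the windows of tested genes (849 of 11171), in 39.1% of those of ciliary genes (52 of 133) and in 36.2% of those of ciliary genes that rose (21 of 58), so that the risers did not hold it more often than the lists they come from. The 150 bases before the start are shown for the 3 risers with the smallest adjusted p whose match lies inside them, with the match in capitals.
Dnaic1 (chr4:41569644-41569793, forward strand): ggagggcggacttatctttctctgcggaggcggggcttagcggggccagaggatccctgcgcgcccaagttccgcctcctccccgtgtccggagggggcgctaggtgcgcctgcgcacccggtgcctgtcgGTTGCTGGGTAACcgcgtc
Dynlrb2 (chr8:116504865-116505014, forward strand): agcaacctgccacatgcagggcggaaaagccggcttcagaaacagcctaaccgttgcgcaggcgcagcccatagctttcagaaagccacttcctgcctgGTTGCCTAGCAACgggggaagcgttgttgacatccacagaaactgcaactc
Ccdc65 (chr15:98708044-98708193, forward strand): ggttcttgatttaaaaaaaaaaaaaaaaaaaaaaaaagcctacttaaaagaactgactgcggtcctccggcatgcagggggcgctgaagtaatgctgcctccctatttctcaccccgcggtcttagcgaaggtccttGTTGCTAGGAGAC
The matches begin 19, 51 and 13 bases before the start in this order. The call on Dynlrb2, a dynein light chain (0.57), ended without replicate 1 (limma adjusted p = 0.0617). A match is a description of the letters and shows no binding in these cultures.

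Secretory genes moved in both directions. Of 29 club and secretory markers tested, 7 rose and 2 fell (4 and 1 without replicate 1), and the median was -0.02. Scgb1a1, the club cell secretory protein (chr19:9083636-9087958), had 1217, 384 and 344 CPM at day 14 against 337, 147 and 170 CPM at day 7 (1.42 ± 0.15, limma adjusted p = 0.00654). All libraries of day 14 were above those of day 7, but replicate 1 stood far above the others on both days, and the call ended without replicate 2 (limma adjusted p = 0.0544). Bpifa1, an antimicrobial surfactant protein of the upper airway, had 2692, 1560 and 2202 CPM against 1162, 795 and 1031 CPM (1.09 ± 0.09, limma adjusted p = 0.00219). Its neighbour on chromosome 2, Bpifb1, had 57.6, 35.5 and 46.1 CPM against 19.3, 12.4 and 26.1 CPM (1.28 ± 0.15, limma adjusted p = 0.00626). Both kept apart by day and kept their calls with each replicate left out. Scgb3a2, another secretoglobin, rose to 1806, 2032 and 1952 CPM, against 1357, 871 and 1064 CPM (0.84 ± 0.15, limma adjusted p = 0.0195), and its call ended without replicate 3 (0.0729). Those that fell were Muc5b, described next, and Chad, the cartilage matrix protein chondroadherin (-0.63 ± 0.12, limma adjusted p = 0.015), whose call ended without replicate 1 or 2 (0.0834 and 0.0554).

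The gel-forming mucins were lower at day 14. Muc5b (chr7:141839070-141873084), the main gel-forming mucin of mouse airways at rest, fell to 123, 222 and 181 CPM at day 14, against 403, 496 and 447 CPM at day 7 (-1.39 ± 0.11, limma adjusted p = 0.00219), after 678 ± 55.4 CPM (SD, n = 3) on day 4. The highest library of day 14 had less than every library of day 7, and the call held with each replicate left out. Muc5ac, the goblet cell mucin beside it on chromosome 7, was scarce and fell to 5.10, 5.31 and 5.32 CPM, against 9.21, 7.38 and 8.61 CPM (-0.63 ± 0.15, limma adjusted p = 0.0423). That call ended in DESeq2 (adjusted p = 0.0579) and without replicate 1 or 3 (limma adjusted p = 0.217 and 0.144). Dmbt1, a secreted scavenger receptor-like protein outside these lists, fell to 241, 294 and 287 CPM, against 405, 749 and 678 CPM (-1.11 ± 0.12, limma adjusted p = 0.00406). Of 16 goblet cell markers tested 2 rose and 1, Muc5ac, fell. The risers were Itln1, an intelectin lectin, at 9.56, 7.83 and 8.85 CPM against 1.96, 2.71 and 2.63 CPM (1.66 ± 0.18, limma adjusted p = 0.00406), and Clca2 (now Clca3a2, 0.75 ± 0.14, limma adjusted p = 0.0145), whose call ended without replicate 1 (0.102). The gene named Clca3 in the deposited table, now Clca1 and also called gob-5, is a goblet cell protein that the list does not hold, since its entry matched the older Clca1 (now Clca3a1). Clca3 had 109, 109 and 106 CPM at day 14 against 45.1, 48.5 and 50.7 CPM at day 7 (1.16 ± 0.08, limma adjusted p = 0.00173), and its call held with each replicate left out. Spdef and Foxa3, which drive goblet cell fate, were not called, at -0.34 ± 0.17 and -0.20 ± 0.25. Muc16, a membrane-bound mucin, rose to 7.59, 12.1 and 13.6 CPM, against 4.92, 2.41 and 3.35 CPM (1.52 ± 0.30, limma adjusted p = 0.035), and lost its call without replicate 3 (0.105); it was the 1 riser of 8 membrane mucins tested.

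**Figure D4:**
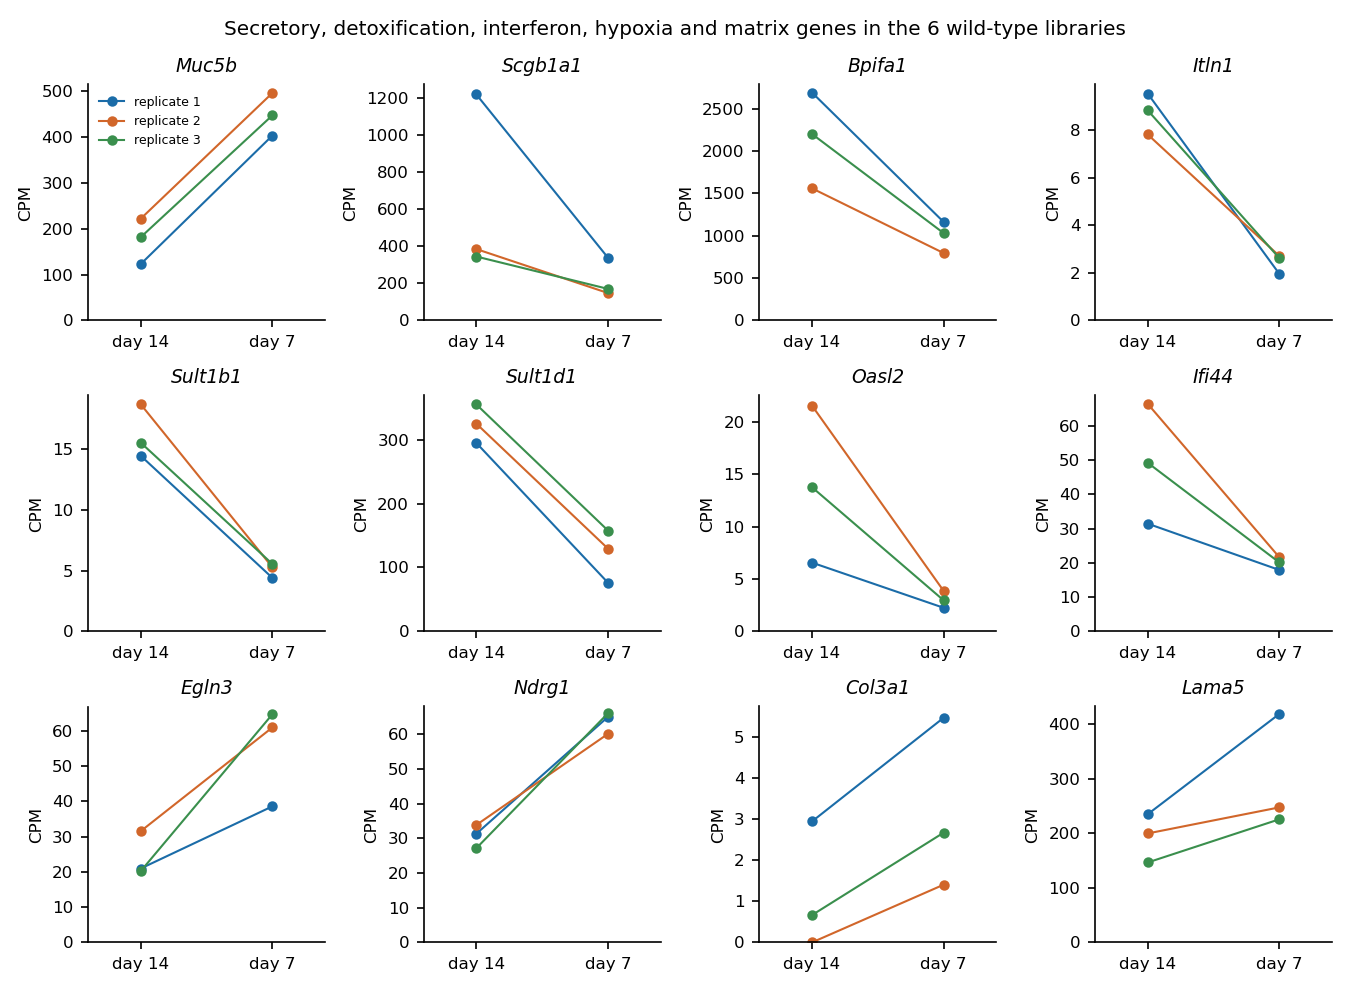
CPM (y axes, linear from 0) of 12 genes at day 14 (left) and day 7 (right) in the wild-type libraries, with a line joining the libraries of the same replicate number. All 3 lines run the same way in each panel, and for Scgb1a1, Col3a1 and Lama5 replicate 1 lies above the others on both days.

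Of 44 tested genes of cytochrome P450 and conjugation, which handle drugs, toxins and retinoids, 8 rose (2, 7 and 7 without replicates 1, 2 and 3) and 0 fell, with 2 at an unadjusted limma p under 0.05 on the lower side and 0 called lower by edgeR or DESeq2. The list median was 0.13. Sult1d1, a cytosolic sulfotransferase, had 295, 325 and 355 CPM at day 14 against 76.2, 129.5 and 158 CPM at day 7 (1.48 ± 0.15, limma adjusted p = 0.00626). Outside the list, its neighbour on chromosome 5, Sult1b1, had 14.4, 18.7 and 15.5 CPM against 4.40, 5.27 and 5.54 CPM (1.58 ± 0.14, limma adjusted p = 0.00233). The days overlapped in neither of these genes. The carboxylesterase Ces1f had 161, 241 and 209.8 CPM against 68.5, 69.3 and 114 CPM (1.30 ± 0.17, limma adjusted p = 0.012), and the call ended without replicate 1 (0.0681). Aldh1a1, which makes retinoic acid, had 9631, 11935 and 9656 CPM against 5299, 5856 and 8429 CPM (0.70 ± 0.16, limma adjusted p = 0.0437), with its call gone without replicate 1 or 2 (0.219 and 0.0797). Cyp2f2, the P450 that defines club cells in mice, was not called, at 26171, 18209 and 21242 CPM against 23651, 20647 and 24334 CPM (-0.08 ± 0.12).

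Of 46 tested genes of interferon response and antigen processing, 16 rose and 0 fell, with a median of 0.42 and medians of 0.22, 0.52 and 0.51 in pairs 1, 2 and 3. These genes are switched on in cells that sense interferon, and many block viruses. On the lower side 1 gene had an unadjusted limma p under 0.05, and edgeR and DESeq2 called 0. The list summed to 2163, 2189 and 1985 CPM at day 14 against 1901, 1935 and 1622 CPM at day 7. Earlier sums were not lower than at day 7, at 2171, 2398 and 1962 CPM on day 4 and 3086, 3145 and 3038 CPM on day 0. No test was made on the sums. Oasl2, an oligoadenylate synthetase-like antiviral protein, had 6.57, 21.6 and 13.8 CPM at day 14 against 2.26, 3.87 and 2.97 CPM at day 7 (1.91 ± 0.20, limma adjusted p = 0.00403), the largest rise among the genes named here. Ifi44 had 31.5, 66.5 and 49.3 CPM against 17.9, 21.7 and 20.1 CPM (1.22 ± 0.14, limma adjusted p = 0.00654). Usp18, which removes the ubiquitin-like Isg15, had 34.6, 58.3 and 52.8 CPM against 20.3, 28.4 and 31.1 CPM (0.85 ± 0.09, limma adjusted p = 0.00406). In these 3 the days did not overlap and the calls held with each replicate left out. Irf7, a transcription factor that amplifies the response, had 27.4, 56.1 and 31.3 CPM against 16.3, 17.3 and 13.4 CPM (1.20 ± 0.17, limma adjusted p = 0.0103). Stat2 and Irf1, which relay the signal, were not called, at 0.28 and -0.11, and neither were the class I genes H2-K1 and H2-D1, at 0.15 and 0.06.

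Replicate 2 of day 14 was the highest of the 6 libraries in 13 of the 16 interferon genes that rose, replicate 1 in 2 and replicate 3 in 1. The number of risers was 13, 11 and 4 without replicates 1, 2 and 3. Oas3 (1.43 ± 0.24) and Oas2 (1.36 ± 0.23), which both peaked in that library at 4.92 and 3.66 CPM, lost their calls without replicate 3 (limma adjusted p = 0.0863 and 0.0757). Cd74, the invariant chain of class II antigen presentation, had 2.304, 7.95 and 3.79 CPM at day 14 against 0.851, 1.00 and 0.729 CPM at day 7 (1.78 ± 0.26, limma adjusted p = 0.00893), and lost its call without replicate 3 (0.0532). It averaged 2.53 ± 1.14 CPM on day 4 and 39.9 ± 14.7 CPM on day 0 (SD, n = 3 each). Class II genes are typical of antigen-presenting leukocytes, and H2-Aa, at 0.189, 2.64 and 0.799 CPM against 0, 0 and 0.0486 CPM, was not called (limma adjusted p = 0.0866). Of 19 leukocyte markers 9 were tested and 0 called by limma (4 higher at an unadjusted p under 0.05) or edgeR, and DESeq2 called 1 higher. Of the 9 tested, 8 had a positive difference and 1 a negative one. The median was 0.19, with medians of 0.14, 0.26 and 0.72 in pairs 1, 2 and 3. Limma called 2 higher without replicate 1 and 1 lower without replicate 3. The summed level of the list was 948 to 1065 CPM at day 14 and 745 to 1363 CPM at day 7, most of it Lyz2 and Cd14, which epithelium also makes. The defining markers were at or near 0: Cd3e at 0 in all 6 libraries, Ptprc at 0.0378, 0.236 and 0.466 CPM against 0, 0.151 and 0.0972 CPM, and C1qa at 0.0378, 0.905 and 0.200 CPM against 0, 0 and 0.0486 CPM. The part of such cells in the class II values was not tested.

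The interferon-stimulated response element, bound by Irf9 together with Stat factors, was searched for as GAAANNGAAA on both strands in the same windows. It was found in 3.63% of the windows of tested genes (406 of 11171), in 48.5% of the list (16 of 33) and in 58.3% of the risers with a window (7 of 12). The same 150 bases are shown for the 3 risers with the smallest adjusted p that hold a match there, with matches in capitals.
Oas3 (chr5:120777660-120777809, reverse strand): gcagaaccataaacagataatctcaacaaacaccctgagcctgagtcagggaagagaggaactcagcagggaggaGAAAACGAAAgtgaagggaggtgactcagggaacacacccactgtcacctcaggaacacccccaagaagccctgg
Bst2 (chr8:71537473-71537622, reverse strand): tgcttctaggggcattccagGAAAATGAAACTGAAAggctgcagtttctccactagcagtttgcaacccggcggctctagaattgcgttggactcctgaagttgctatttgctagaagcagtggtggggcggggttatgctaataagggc
B2m (chr2:122147537-122147686, forward strand): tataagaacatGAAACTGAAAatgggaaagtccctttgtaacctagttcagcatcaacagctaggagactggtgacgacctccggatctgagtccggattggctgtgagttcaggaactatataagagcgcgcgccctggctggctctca
In Bst2, a protein that tethers viruses to the cell (0.75 ± 0.13), the capitals cover 2 overlapping matches. B2m, the light chain of class I molecules, rose little but evenly, to 135, 157 and 143 CPM at day 14, against 109, 112 and 106 CPM at day 7 (0.41 ± 0.08, limma adjusted p = 0.0182). Without replicate 3 the calls on Bst2 and B2m ended (limma adjusted p = 0.0554 and 0.095), that on B2m also without replicate 1 (0.0818), and Irf7 kept its call with each replicate left out.

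Of 32 tested genes of hypoxia and glycolysis 3 fell and 1 rose, with a median of -0.15. Egln3, a prolyl hydroxylase induced through HIF, fell to 20.9, 31.5 and 20.2 CPM at day 14, against 38.5, 60.9 and 64.6 CPM at day 7 (-1.15 ± 0.16, limma adjusted p = 0.00984). Adm, which encodes the peptide adrenomedullin, had 11.6, 23.8 and 8.92 CPM against 22.7, 38.9 and 25.8 CPM (-1.04 ± 0.15, limma adjusted p = 0.0079). Egln3 did not overlap between days, whereas for Adm replicate 2 of day 14 exceeded replicate 1 of day 7. Both calls held with each replicate left out. P4ha2, a collagen prolyl hydroxylase, fell less (-0.42 ± 0.09, limma adjusted p = 0.0227) and lost its call without replicate 1 or 3 (0.0633 and 0.126). The riser was Slc16a3, a lactate exporter (0.68 ± 0.15, limma adjusted p = 0.0316), whose call ended whichever replicate was left out (0.0571 to 0.111). The glycolytic enzymes Ldha, Pgk1, Aldoa and Pkm had differences of -0.20, 0.02, -0.27 and -0.11 and were not called. Outside the list, Ndrg1, which is also induced by hypoxia, fell to 31.3, 33.9 and 27.2 CPM, against 65.0, 60.1 and 66.1 CPM (-1.04 ± 0.10, limma adjusted p = 0.00264), and the adenylate kinase Ak4 fell to 3.63, 7.64 and 4.93 CPM, against 7.51, 13.8 and 15.2 CPM (-1.10 ± 0.17, limma adjusted p = 0.00893).

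Collagen, laminin and other matrix genes fell in 7 and rose in 1 of 37 tested, with a median of -0.37. The number that fell was 2, 9 and 2 without replicates 1, 2 and 3. The riser was Mmp2, a gelatinase, at 5.55, 7.95 and 7.25 CPM at day 14 against 3.96, 3.72 and 3.79 CPM at day 7 (0.77 ± 0.17, limma adjusted p = 0.0316), and its call ended whichever replicate was left out (0.064 to 0.14). Lama5, the laminin chain of epithelial basement membrane, fell to 235, 199 and 146 CPM at day 14, against 418, 247 and 225 CPM at day 7 (-0.59 ± 0.10, limma adjusted p = 0.0134). Its days overlapped by a single library, and the call ended without replicate 1 or 3 (0.107 and 0.089). The fibrillar collagens that fell are fibroblast products and were scarce. Col3a1 had 2.95, 0 and 0.666 CPM against 5.47, 1.41 and 2.67 CPM (-1.39 ± 0.24, limma adjusted p = 0.0118), Col1a2 had 2.27, 0 and 0 CPM against 4.03, 1.00 and 0.972 CPM (-1.29 ± 0.23, adjusted p = 0.0145 in limma), and Col5a2 had 3.06, 0.354 and 0.666 CPM against 6.398, 1.51 and 1.80 CPM (-1.06 ± 0.18, adjusted p = 0.0126 in limma). Replicate 1 had most of these collagens on both days, and the days overlapped in all 3. In edgeR Col3a1 and Col1a2 were not called (adjusted p = 0.176 and 0.257), and without replicate 3 in limma the adjusted p was 0.0765 for Col3a1, 0.0938 for Col1a2 and 0.0559 for Col5a2, which also missed it without replicate 1 (0.0715). Col1a1 (-0.94 ± 0.21) was called in neither edgeR nor DESeq2 (0.0843 and 0.0626). Of 17 fibroblast markers 9 were tested, of which 3 fell in limma (Col3a1, Col1a2 and Col1a1), against 0 in edgeR and 2 in DESeq2. The summed level of all 17 was 21.3, 25.0 and 37.9 CPM against 32.3, 27.6 and 29.997 CPM, and Dpt, Lum and Prrx1 had at most 0.444 CPM. The part of residual fibroblasts in the collagen values was not tested. Of the smooth muscle and cartilage markers 6 were tested and limma, edgeR and DESeq2 called 0, with 2 at an unadjusted limma p under 0.05.

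All 23 basal cell markers tested had a negative difference, with a median of -0.25, 14 of them at an unadjusted limma p under 0.05, but 1 was called, Krt17 (43.7, 61.0 and 26.2 CPM at day 14 against 62.0, 88.1 and 50.5 CPM at day 7, -0.65 ± 0.10, limma adjusted p = 0.00947). Over all genes tested, 3202 of 14365 reached that unadjusted p. EdgeR called 8 of the 23 basal markers lower and DESeq2 7. Krt5 stood at -0.18 ± 0.12 and the basal factor Trp63 at -0.27 ± 0.08, both uncalled in limma. Of 21 squamous and cornified markers tested 2 fell, and the median was -0.26. They were the stress keratin Krt6a, with 3.82, 15.2 and 5.79 CPM against 6.07, 34.3 and 10.5 CPM (-0.85 ± 0.15, limma adjusted p = 0.012), and the cross-linking enzyme Tgm1 (-0.61 ± 0.13, limma adjusted p = 0.0304). Both were lower in each of the 3 pairs with days that overlapped, and both lost their calls without replicate 3 (0.0586 and 0.0909), Krt6a also without replicate 2 (0.0593) and Tgm1 without replicate 1 (0.213).

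Of 39 tested genes of cell cycle and DNA replication 3 fell and 0 rose, with 0 called higher by edgeR or DESeq2 and 0 higher at an unadjusted limma p under 0.05. The median was -0.17, and the medians in pairs 1, 2 and 3 were -0.06, -0.73 and 0.31. Mki67, the proliferation marker, had 8.39, 7.76 and 23.2 CPM at day 14 against 11.1, 16.3 and 17.1 CPM at day 7 (-0.32 ± 0.27), and replicate 3 of day 14 was the highest of the 6. Those that fell were the S-phase genes E2f8 (-0.86 ± 0.18, limma adjusted p = 0.0272), Mcm3 (-0.49 ± 0.11, 0.0341) and Rrm1 (-0.36 ± 0.09, 0.0451). E2f8 and Mcm3 lost their calls without replicate 1 (0.0948 and 0.0806) or 3 (0.119 and 0.164), and Rrm1 without any 1 of the replicates (0.0849 to 0.208).

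Further lists had few calls, and their shares are to be read against the 4.43% of all genes called higher and 1.4% called lower. Of 18 Notch pathway genes 1 rose, Hes6, a Hes family protein that opposes Hes1, at 261, 215 and 172 CPM against 135, 141 and 140.4 CPM (0.62 ± 0.12, limma adjusted p = 0.0237). It stood apart by day, and its call ended without replicate 1 or 2 (0.118 and 0.0637). Of 29 Wnt pathway genes 3 rose and 1 fell, the co-receptor Lrp5, to 114, 102 and 87.6 CPM, against 156, 139 and 145 CPM (-0.54 ± 0.09, limma adjusted p = 0.00964). Of 29 tight junction and desmosome genes 3 fell, the envelope protein Evpl (-0.52 ± 0.09), the claudin Cldn1 (-0.85 ± 0.18) and the scaffold Tjp1 (-0.40 ± 0.09). Of 31 complement and host defence genes 2 rose and 1 fell, namely the complement regulator Cd55 (0.50 ± 0.08) and the chitinase Chia (1.08 ± 0.19) up and the protease inhibitor Slpi (-0.80 ± 0.18) down. Of 19 genes of epithelial inflammation 2 rose, Cxcl17 (0.49 ± 0.08) and Ccl28 (0.53 ± 0.12), and 1 fell, Csf3 (-0.69 ± 0.16). Of 19 retinoic acid genes 2 rose, Aldh1a1 and Dhrs9 (0.50 ± 0.09). Ribosomal proteins (33 tested), oxidative phosphorylation (30 tested) and the antioxidant response (22 tested) had 0 calls in limma. Without replicate 1 the limma adjusted p was 0.0523 for Lrp5, 0.0822 for Evpl, 0.12 for Cldn1, 0.255 for Tjp1, 0.0801 for Cd55 and 0.0899 for Chia, so that none of these calls held. Without it the values were 0.0725 for Slpi, 0.114 for Cxcl17 and 0.2 for Csf3, and without replicate 3 they were 0.192 for Ccl28 and 0.0773 for Dhrs9, all of which then missed the threshold. In the 3 lists with no call, 3, 3 and 4 genes had an unadjusted limma p under 0.05, beside 3202 of all 14365 genes. EdgeR called 0 in each, and DESeq2 called 1, in the antioxidant list.

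The remaining calls among list members were few, and are to be read against the same shares of all genes. Pltp, a phospholipid transfer protein and the 1 riser among 25 p53 targets, had 108, 124 and 111 CPM at day 14 against 55.4, 47.3 and 73.4 CPM at day 7 (0.98 ± 0.14, limma adjusted p = 0.0122). Scd1, the stearoyl-CoA desaturase and the 1 gene to fall among 26 of cholesterol and fatty acid synthesis, had 973, 463 and 611 CPM against 1785, 676 and 845 CPM (-0.63 ± 0.10, limma adjusted p = 0.00941). Pltp stood apart by day, while Scd1 overlapped, with replicate 1 highest on both days. Both calls ended without replicate 1 (0.0811 and 0.0748). Slc34a2, a phosphate transporter counted among both ion transport and alveolar markers, fell (-0.83 ± 0.14) and missed the threshold without replicate 1 or 3 (0.061 and 0.0582). Of the 9 alveolar markers tested 1 other was called, Hopx, a homeodomain protein, which rose (0.45 ± 0.10, limma adjusted p = 0.0259) and missed it without replicate 2 or 3 (0.0668 and 0.144). Dclk1, a tuft cell kinase, fell (-0.38 ± 0.08) and missed it without replicate 1 or 3 (0.12 and 0.123). The early response gene Ier3 fell (-0.57 ± 0.09) and missed it without replicate 3 (0.0698). The 3 Wnt genes that rose were the ligands Wnt11 (0.89 ± 0.16), uncalled without replicate 3 (0.0775), and Wnt5b (0.40 ± 0.10) and the secreted Dkk3 (0.63 ± 0.15), both uncalled whichever replicate was left out (0.109 to 0.218 for Wnt5b and 0.058 to 0.218 for Dkk3). Ionocyte and neuroendocrine markers, 9 tested of each, had 0 calls in limma, with 2 and 1 at an unadjusted p under 0.05; DESeq2 called 0 in both, and edgeR called 1, an ionocyte list member.

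The largest differences outside the lists were spread over many functions. Cdhr4, a cadherin-related protein, had 51.2, 63.0 and 68.8 CPM at day 14 against 18.2, 11.9 and 27.6 CPM at day 7 (1.71 ± 0.21, limma adjusted p = 0.0121), after 1.70 ± 1.34 CPM (SD, n = 3) on day 4, and Calml4, a calmodulin-like protein, had 61.3, 80.4 and 83.4 CPM against 25.6, 19.1 and 38.0 CPM (1.47 ± 0.18, limma adjusted p = 0.0109). B3galt2, a glycosyltransferase, rose to 252, 285 and 318 CPM, against 96.0, 83.6 and 151 CPM (1.41 ± 0.12, limma adjusted p = 0.00357). In these 3 genes no library of day 14 reached down to day 7, though the call on Cdhr4 ended without replicate 1 (0.0585). Sectm1b (1.44 ± 0.13) and Zfp783, annotated as a transcribed pseudogene (1.35 ± 0.17), rose too, and the fibrinogen-like Fgl2 rose to 2.04, 2.99 and 1.73 CPM, against 0.740, 0.301 and 0.583 CPM, though its call ended without replicate 1 or 3 (0.0523 and 0.0527). On the falling side, Akap12, a scaffold for protein kinase A, had 1.32, 1.46 and 1.60 CPM against 3.77, 4.37 and 4.76 CPM (-1.29 ± 0.17, limma adjusted p = 0.00654), with the days well apart. The kallikrein Klk10 (-1.20 ± 0.11), the metalloproteinase Adamts15 (-0.99 ± 0.13) and Tmem132b (-1.25 ± 0.18) fell with each replicate left out, and the actin cross-linker Flnc (-1.33 ± 0.22), highest in replicate 1 on both days, lost its call without replicate 1 or 3 (0.0843 and 0.0648).

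The step before, day 7 against day 4, is set beside these values but shares the day 7 libraries. In it 16 of 14344 genes were called (0.112%), 2 higher (0.0139%) and 14 lower (0.0976%). For the 161 ciliary genes the median difference was 0.97 at that step and 0.45 at the later one, and 0 were called at that step, although 146 were higher at an unadjusted limma p under 0.05; no other tool was run on it. Matrix genes had medians of -0.36 and -0.37 at the 2 steps, and interferon genes -0.26 and 0.42.

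The same interval was measured in the cultures labelled p73 knock-out, with 2 libraries on each day of 23.3 and 19.03 M reads at day 14 and 22.3 and 26.1 M reads at day 7. Trp73 itself had 30.5 and 16.7 CPM at day 14 and 30.2 and 21.2 CPM at day 7 in these libraries, against 23.3, 27.0 and 27.2 CPM and 22.2, 27.0 and 34.9 CPM in wild type. The count thus does not set the genotypes apart; the labels do not state which exons are deleted, and reads from a transcript without them would still be counted, so that the genotype is taken from the label. In the knockout-labelled cultures 118 of 14751 genes were called between the days (0.8%), 12 higher (0.0814%) and 106 lower (0.719%). Of the 161 ciliary genes 0 were called there in limma, with 4 higher and 2 lower at an unadjusted p under 0.05, and no other tool was run on it. Their median difference was -0.05 in the knockout-labelled cultures, against 0.45 in wild type, and 62 of the 161 were positive, against 158. At day 14 their level in the knockout-labelled cultures was a median 41.2% of that in wild type, and 160 of 161 were lower. The test of the difference between the changes had a median of -0.50 for these genes; 89 were lower at an unadjusted limma p under 0.05 and 0 higher, but 0 passed the adjusted threshold.

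**Figure D5:**
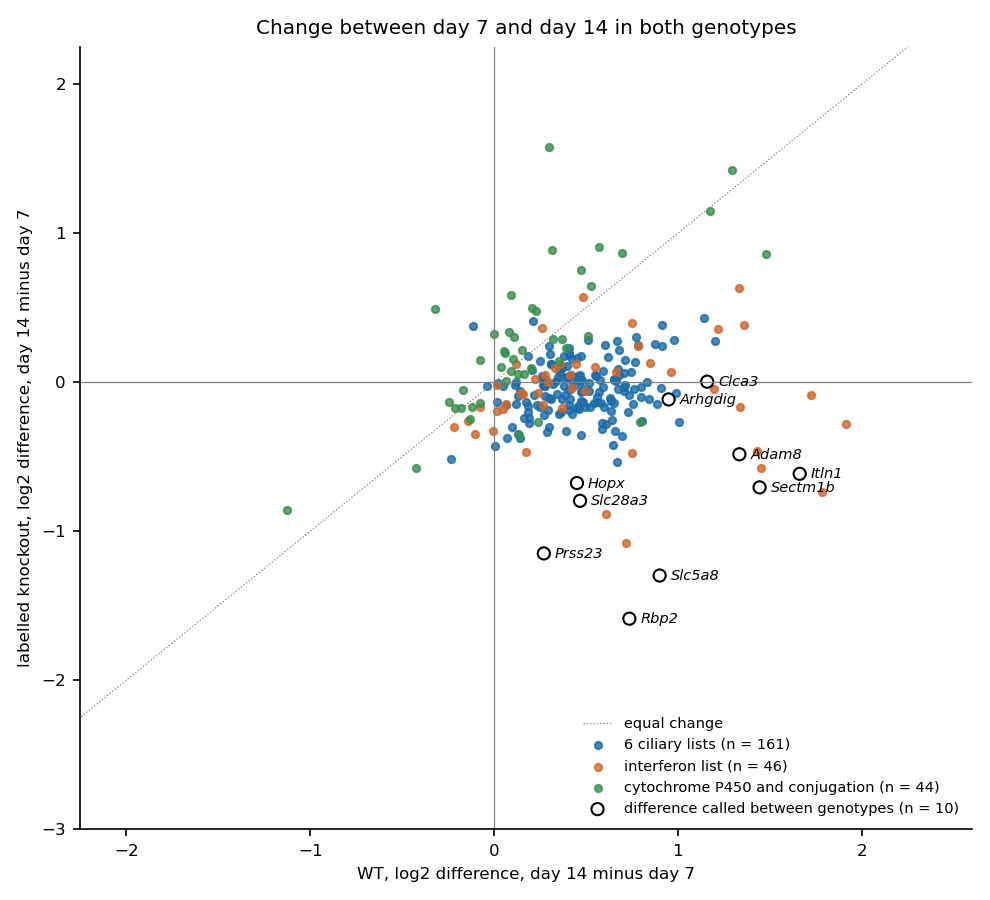
Log2 difference of day 14 over day 7 in the libraries labelled knockout (y axis) against that in wild type (x axis) for tested members of the ciliary, interferon and detoxification lists and for 10 genes whose changes differed between genotypes (rings). Of the 161 ciliary genes 158 lie to the right of 0, and 62 above 0 on the y axis, and the 10 ringed genes all lie below the dotted line of equal change.

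Over all genes 10 of 14751 differed in their change between the genotypes (0.0678%), each with a lower change in the knockout-labelled cultures. Sectm1b, a secreted and membrane protein, had 8.17 and 8.73 CPM at day 14 and 12.3 and 16.2 CPM at day 7 in the knockout-labelled cultures, against 20.02, 20.3 and 18.4 CPM and 7.80, 6.08 and 6.81 CPM in wild type. The change was lower by a log2 value of -2.15 ± 0.20 (limma adjusted p = 0.00713). Wild type moved up and the knockout-labelled pairs moved down, without overlap of the single pairs. Adam8, a metalloproteinase, had 31.2 and 52.2 CPM at day 14 and 47.4 and 67.8 CPM at day 7, against 258, 239 and 275 CPM and 111, 73.1 and 129 CPM in wild type (-1.82 ± 0.18, limma adjusted p = 0.0145). All 10 calls ended without knockout-labelled replicate 2 (limma adjusted p from 0.168 to 0.403). With each wild-type replicate left out in turn, Sectm1b and Adam8 kept their calls. Without wild-type replicate 3 the rest lost theirs (limma adjusted p from 0.0991 to 0.212). Adh7, an alcohol dehydrogenase of the detoxification list, was called in both genotypes, with 0.75 in the knockout-labelled cultures and 0.47 in wild type, where its call ended without replicate 1 (0.119). The gel-forming mucin Muc5b had -0.83 in the knockout-labelled cultures (limma adjusted p = 0.065) and -1.39 in wild type, a difference that did not pass the test (0.56, limma adjusted p = 0.37). For Egln3 the values were 0.03 and -1.15, and for Oasl2 -0.28 and 1.91, differences of 1.19 and -2.19 that missed the threshold too (limma adjusted p = 0.12 and 0.0557).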

How the data were processed

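Polyadenylated RNA of whole tracheal epithelial cultures was sequenced from TruSeq RNA v2 libraries, which do not mark strand, so overlapping, antisense and closely related genes cannot be told apart. The deposited values are signal: gene counts that the authors divided by size factors set within each day, as median-of-ratios factors recomputed from the recovered reads within each day gave the same factors (ratio 1.000 in each library). The submitters' processing notes name STAR 2.3.0e, DESeq2 1.4.5 and mm10; how reads were counted, and on which annotation, is not given in the sources used here. In each library the signal was a whole multiple of 1 step in 100% of values (tolerance 0.1 reads), so whole reads were recovered for 38355 genes.

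Reads were scaled with TMM over 20 libraries to CPM. A filter of 0.5 CPM in 2 or more of the 6 libraries left 14365 genes, which were tested on log2(CPM + 0.5) with limma 3.58.1 (trend and robust options, replicate number as a block, 2 residual degrees of freedom) in R 4.3.3, with Benjamini-Hochberg adjustment over all of them. Steps were tested on simulated data. Same-numbered libraries deviated together, with correlations of 0.672, 0.419 and 0.440 over 12167 genes, so the numbers were taken as pairs. EdgeR 4.0.16 and DESeq2 1.42.0 on the recovered reads, other scalings, filters, pseudocounts and leaving out each replicate were alternatives. The change between genotypes was tested as an interaction in 10 libraries. Coordinates are GRCm38, matched to 14225 of the genes tested, and promoter windows are RefSeq's.

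Named genes are, in each direction, the 15 with the largest difference among calls that averaged at least 2 CPM in the higher group and moved alike in all 3 pairs, up to 4 called members of each list, all tested regulators and the 10 genes of the genotype contrast. Uncalled list members given beside them, Irf7, Bst2, B2m, Scgb3a2, Sntn, Spag16, Dynlrb2, Tekt1, Dnahc7a, Mmp2, Chad and the wild-type values of Clca3 were added after their values were seen. A few genes that this rule selects are not reported here. The comparison, its members and the gene lists were chosen with earlier results of these data known.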

Additional observations from a re-analysis of the deposited data

Results flagged for a closer look

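These 10 genes met an adjusted p under 0.05 (limma, interaction of day and genotype over 10 libraries) in the test of whether the change between day 14 and day 7 differs between the libraries labelled knockout and wild type. In each of them the change was lower in the knockout-labelled libraries, and all of the calls ended without knockout-labelled replicate 2. Without wild-type replicate 3 the calls held for Sectm1b and Adam8 only, and the rest had a limma adjusted p from 0.0991 to 0.212. At day 14, 160 of 161 ciliary genes had a lower mean in the knockout-labelled libraries than in wild type. The part of this in these differences was not tested.

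Sectm1b, a secreted and membrane protein, differed by -2.15, with log2 changes of -0.71 in knockout-labelled libraries and 1.44 in wild type. Adam8, a metalloproteinase, differed by -1.82 (-0.48 and 1.33), and Clca3, a secreted goblet cell protein, by -1.16 (0.00 and 1.16). For Itln1, a lectin of goblet cells, the difference was -2.28 (-0.62 and 1.66), while its level was higher in the knockout-labelled libraries on both days. Arhgdig differed by -1.06 (-0.12 and 0.95).

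In the other 5 the knockout-labelled change was itself called and negative. Slc5a8, a monocarboxylate transporter, differed by -2.20 (-1.30 in knockout-labelled libraries and 0.90 in wild type), and Rbp2, a retinol-binding protein at under 3 CPM throughout, by -2.32 (-1.59 and 0.74). Prss23, a serine protease, differed by -1.42 (-1.15 and 0.27), Slc28a3, a nucleoside transporter, by -1.26 (-0.80 and 0.47), and Hopx, a homeodomain protein, by -1.13 (-0.68 and 0.45). The wild-type changes of Rbp2 and Prss23 were not called on their own.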

How the results depend on the processing

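The replicate block and the number of replicates limit these results most. Without the replicate block 6 genes were called in wild type (5 higher, 1 lower, 2 of them list members against 156 as reported), 0 in the knockout-labelled cultures, 0 for the difference between genotypes and 3 between days 7 and 4. All 20 libraries in 1 fit without the block, and the 12 wild-type libraries with it, gave 0 calls in either direction and 0 among list members. Leaving out 1 replicate gave 317 to 767 calls, with 280 to 452 higher, 37 to 315 lower and 72 to 132 list members; for the genotype difference, leaving out 1 wild-type or knockout-labelled replicate gave 0 to 99 calls against 10.

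Scaling moved the balance of directions. The values as deposited gave 1773 calls with 1225 lower, library size 335 lower, edgeR 353 lower and no filter on low values 337 lower, against 201 as reported; the share called higher was 65.7% in edgeR and 70.5% in DESeq2. The 837 called genes had the same sign under each of these alternatives, except for 1 gene without replicate 2; with a filter of at least 1 CPM in at least 3 libraries 827 of them had a value, all of the same sign. TMM over the 6 libraries alone, chosen after the data were seen, gave 1010 calls. Of 102 named called genes, 41 stayed called with each replicate left out, 98 in DESeq2 and 99 in edgeR. The cause of these shifts was not tested. At 14.4 to 26.2 M reads, genes under about 0.5 CPM were not tested.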
